A study of Homo sapiens with 12 samples.

Results

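Iron handling was followed in HK-2 cells, an immortalised line of human renal proximal tubular epithelial cells, through the transcripts of 9 genes of iron uptake, storage and export. The genes were SLC40A1, FTH1, FTL, TFRC, SLC11A2, SLC39A14, IREB2, ACO1 and NCOA4, and they were taken for their known roles. A total of 20 probe sets on the array were annotated to exactly 1 of these genes, and they covered 7 of the 9 genes, out of 19775 genes with such a probe set in all. FTH1 and IREB2 had no probe set under their name in the annotation used and were not analysed here. Each gene was read from its brightest probe set by mean over 12 arrays, with the gene's other probe sets as a check. The 4 groups of 3 biological replicates were cells exposed for 24 h to Aa at the dose labelled high, controls of 24 h, cells exposed to the same treatment for 48 h, and controls of 48 h. Controls received the vehicle of the compound. The labels used here give neither the amount of Aa nor what it is. All cells grew in the same hormone-supplemented medium, which contained human transferrin, the iron carrier of plasma, and they were treated near confluence.

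Most cells take up iron bound to transferrin, which enters with the transferrin receptor encoded by TFRC. The divalent metal transporter encoded by SLC11A2 then moves the iron out of the endosome, and the transporter encoded by SLC39A14 brings in iron that is not bound to transferrin. Ferritin, built from heavy (FTH1) and light (FTL) chains, stores iron in the cell, the receptor NCOA4 carries ferritin to autophagy for release of its iron, and ferroportin (SLC40A1) is the known exporter. The iron regulatory proteins encoded by ACO1 and IREB2 bind iron-responsive elements in transcripts when iron is low, which blocks translation of ferritin and stabilises the TFRC transcript. In the kidney the proximal tubule reclaims iron from the filtrate.

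The iron-responsive element is shown here for FTL, because its letters lie within the first bases of the transcript and take part in translational control, which arrays of mRNA do not measure. The stretch is from RefSeq (GRCh38.p14, chr19:48965329-48965358, plus strand), and the capitals mark a match to CAGTGN, the letters of the element's loop with T for U.
FTL: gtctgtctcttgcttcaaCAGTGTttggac
The match began at base 39 of the transcribed window. CAGTGN, read in the transcribed direction only, was present in the first 50 bases of 6.36% of 35116 RefSeq windows. Among the other members with a window, 1 of the 2 windows of NCOA4 also held it. FTH1 and SLC39A14 had no window. The rest of each transcript was not searched, so a gene without a match here may still carry the element. The genes with the called rise and with the largest called fall at 48 h, TFRC and SLC40A1, are shown with the 250 bases before their starts, both from RefSeq (GRCh38.p14, minus strand, chr3:196082091-196082340 and chr2:189580787-189581036). Capitals mark ACGTG, the core of the hypoxia response element, searched on both strands.
TFRC: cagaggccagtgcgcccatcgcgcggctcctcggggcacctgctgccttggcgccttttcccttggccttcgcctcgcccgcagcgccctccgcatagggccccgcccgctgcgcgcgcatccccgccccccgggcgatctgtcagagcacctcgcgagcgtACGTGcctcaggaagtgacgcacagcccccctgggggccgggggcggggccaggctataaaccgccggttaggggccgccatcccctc
SLC40A1: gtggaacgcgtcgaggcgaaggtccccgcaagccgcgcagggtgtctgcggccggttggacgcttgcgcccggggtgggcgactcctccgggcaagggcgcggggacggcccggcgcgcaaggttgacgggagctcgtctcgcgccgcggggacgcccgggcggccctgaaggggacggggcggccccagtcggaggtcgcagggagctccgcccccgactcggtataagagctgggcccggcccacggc
TFRC held 1 match, which began 88 bases before the start (position -88), and SLC40A1 held 0. FTL, which was not called at either time, also held 1 match, at -11. The core was present in 18.5% of all windows of that length. The antioxidant response core TGACNNNGC, searched on both strands and present in 10.9% of the windows, was in neither stretch. These matches describe letters only.

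Values are log2 expression as deposited, and values under log2 4 are close to background. Over all probe sets, r was 0.994 to 0.997 between replicates of a group. For ACTB and GAPDH, the 3' minus 5' probe set difference, which rises with RNA degradation, averaged 0.394 with Aa and 0.306 in controls at 24 h, and 0.542 with Aa and 0.319 in controls at 48 h (log2). All 8 genes of the epithelial list (KRT8, KRT18, KRT19, CDH1, EPCAM, CDH2, VIM and PAX8) were over the expression limit. Of these, CDH2 and VIM are not specific to epithelial cells. In contrast, 0 of 8 defining proximal tubule markers, among them LRP2, CUBN and AQP1, were over it. Fibroblast markers over the limit were COL1A1, DCN and LUM (3 of 5), and 0 of 4 endothelial, 0 of 4 leukocyte and 0 of 3 erythroid markers were. The summed log2 level of the epithelial list, CDH2 and VIM included, was 85.75 to 88.38 with Aa and 92.28 to 94.06 in controls at 24 h. At 48 h it was 83.83 to 87.39 with Aa and 91.01 to 93.34 in controls. The fibroblast sum was 33.62 to 35.47 with Aa and 35.7 to 36.85 in controls at 24 h, and 34.68 to 35.43 with Aa and 34.94 to 35.82 in controls at 48 h. The part of RNA quality and of these markers in the results below was not tested. In such bulk samples fewer cells and less RNA per cell cannot be told apart.

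Aa-treated cells held less of the transcripts for the iron transporter SLC11A2 and the iron regulatory protein ACO1 at both times, less of the exporter SLC40A1 at 48 h and more of the receptor TFRC at 48 h. The light chain FTL, the ferritin receptor NCOA4 and the transporter SLC39A14 did not pass the test at either time, but some alternative settings changed this. FTL passed at 24 h with the replicate number as a block (adjusted p = 0.0262). Scaling to the hybridisation controls moved the median of all genes by -0.29 at 24 h and -0.47 at 48 h. SLC39A14 then passed as a fall at both times (limma adjusted p = 0.0172 and 0.00101), and NCOA4 did at 48 h (limma adjusted p = 0.00352). Of the 7 genes, all of which were over the expression limit, 2 fell, 0 rose and 5 were not called by limma at 24 h, and 2 had a positive change at an unadjusted p under 0.05. Those 2, FTL and TFRC, passed as rises with the block, which left their log2 changes at 0.21 and 0.57. The block thus changed their adjusted p and not the size of the change. The replicate numbers paired the samples. Over all 11184 genes tested, 49.1% were called at 24 h (22.8% fell and 26.3% rose). At 48 h 3 of the 7 genes fell, 1 rose and 3 were not called, against 64.5% of all genes called, 33.9% that fell and 30.6% that rose. The median log2 change of the 7 genes was -0.13 at 24 h and -0.20 at 48 h, against 0.02 and -0.03 over all genes tested. The groups did not overlap for 6 of the 7 genes at 24 h and 5 at 48 h, against 59.8% and 69.1% of all genes. A gene passed the test at a Benjamini-Hochberg adjusted p under 0.05 over all genes tested.

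**Figure D1:**
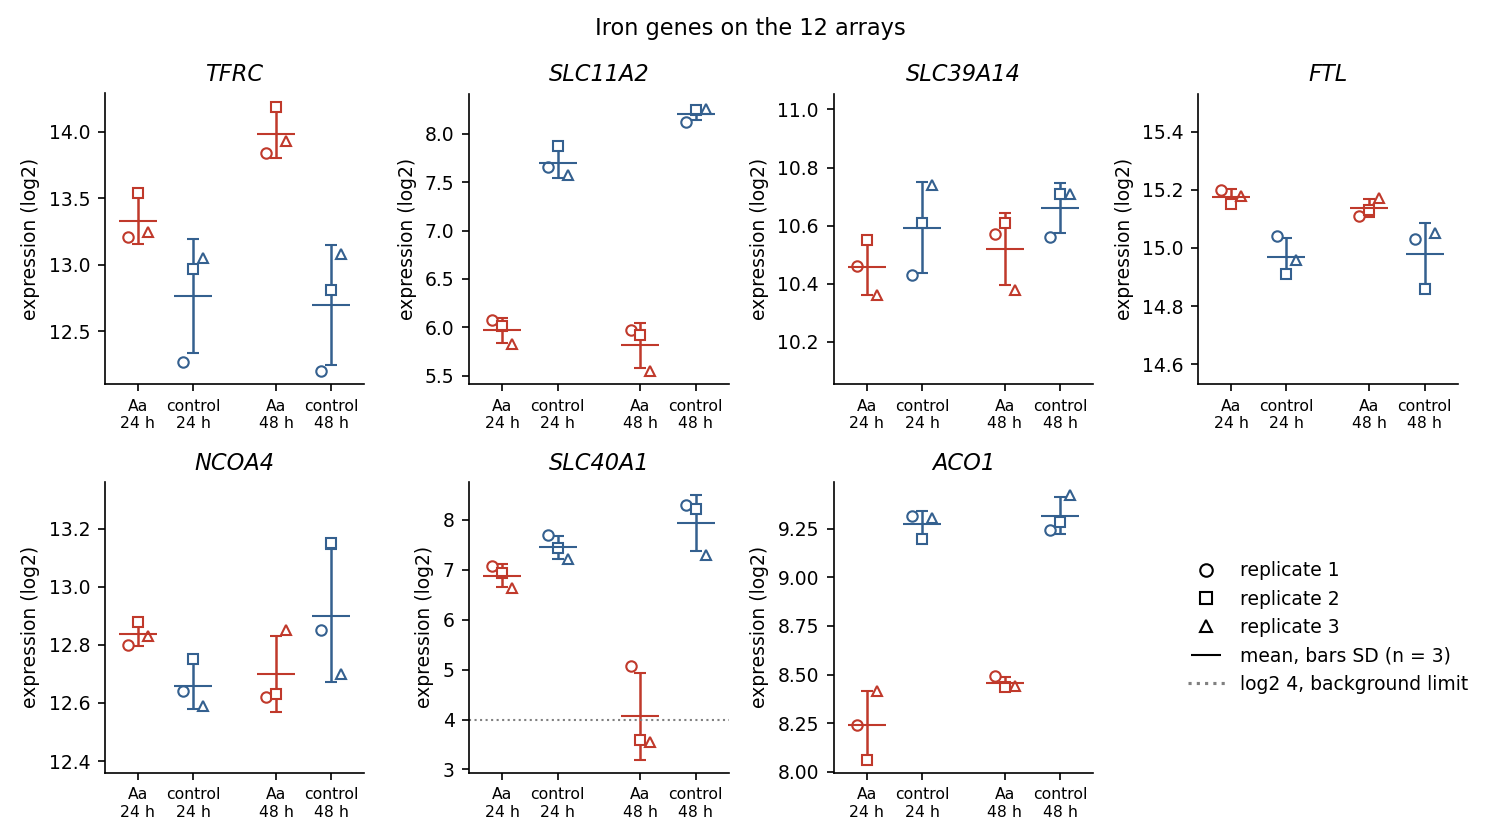
Expression (log2, vertical axis, a separate scale for each gene) of the 7 iron genes in the 4 groups, with Aa in red and control in blue, a symbol for each replicate number, and mean and SD (n = 3). Aa and control arrays do not overlap at either time for TFRC, SLC11A2, FTL, SLC40A1 and ACO1. Over all genes, 59.8% do not overlap at 24 h and 69.1% at 48 h. SLC40A1 lies under the dotted line at log2 4 on 2 of 3 Aa arrays at 48 h.

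For uptake through the transferrin receptor, the transcript of TFRC was read, and uptake itself was not measured. TFRC had 13.21, 13.54 and 13.25 in Aa cells at 24 h, against 12.27, 12.97 and 13.05 in control cells at 24 h (log2, replicates 1 to 3). At 48 h TFRC had 13.84, 14.19 and 13.93 in Aa cells, against 12.20, 12.81 and 13.08 in control cells. The Aa arrays were above all control arrays at each time, and replicate 1 was the lowest control array at both. TFRC averaged 13.99 ± 0.18 in Aa cells and 12.70 ± 0.45 in control cells at 48 h (SD, n = 3 each), a 2.45-fold rise (log2 change 1.29, SE 0.249, limma adjusted p = 0.000875). At 24 h the log2 change was 0.57 (SE 0.249, limma adjusted p = 0.0801), and with the replicate number as a block it passed (adjusted p = 0.0145), as it did without replicate 1 of control at 48 h (adjusted p = 0.0436). Without replicate 1 of control at 24 h the change was 0.32 (adjusted p = 0.297), and it passed in 1 of the 12 fits that left out 1 array. Between cells of the same replicate number TFRC differed by 0.94, 0.56 and 0.20 at 24 h and by 1.64, 1.38 and 0.85 at 48 h. The 48 h change was 0.72 above the 24 h change (SE 0.352, limma adjusted p = 0.168, and 0.0377 with the block). In the order of the levels Aa at 48 h came first and Aa at 24 h next, while the control groups of the 2 times overlapped.

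The other probe sets of TFRC did not all move alike. The probe set with the next highest mean (12.65) changed by 0.32 at 24 h (adjusted p = 0.327) and by 1.38 at 48 h (adjusted p = 0.000731). The probe set with a mean of 9.97 changed by -0.23 and 1.11 (adjusted p = 0.729 and 0.0724), and that with a mean of 6.30 changed by -0.08 and -0.23 (adjusted p = 0.862 and 0.569). The other one was under the expression limit. With the median over probe sets in place of the brightest one, the 48 h change of TFRC was 1.11 and did not pass (limma adjusted p = 0.0677).

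The endosomal iron transporter SLC11A2, also called DMT1, had the largest fall at 24 h among the 7 genes. It had 6.07, 6.01 and 5.82 in Aa cells at 24 h, against 7.66, 7.88 and 7.57 in control cells at 24 h. At 48 h it had 5.98, 5.92 and 5.55 in Aa cells, against 8.13, 8.25 and 8.26 in control cells. Each Aa array lay more than a log2 unit under every control array. The fall was 3.33-fold at 24 h (log2 change -1.73, SE 0.134, limma adjusted p = 2.23e-06) and 5.26-fold at 48 h (log2 change -2.39, SE 0.134, limma adjusted p = 1.33e-07). Of all genes tested, 91.5% had a smaller change in size at 24 h and 92.2% at 48 h.

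The change of SLC11A2 was larger in size at 48 h than at 24 h by 0.66 (log2 change -0.66, SE 0.189, limma adjusted p = 0.0345). This call held in 4 of 12 fits that each left out 1 array (adjusted p between 0.0275 and 0.0833). It was lost without replicate 1 or 2 of Aa at 24 h, replicate 3 of Aa at 48 h, replicate 1 or 3 of control at 24 h, or any 1 control array at 48 h. By the other probe sets over the limit the difference was -1.23, -0.04 and -0.29 (limma adjusted p = 0.0668, 0.94 and 0.199). Across these groups the level in Aa cells was 5.97 ± 0.13 at 24 h and 5.82 ± 0.23 at 48 h, and that in control cells was 7.70 ± 0.16 at 24 h and 8.21 ± 0.07 at 48 h (SD, n = 3). In control cells alone the level at 48 h minus that at 24 h was 0.51 (limma adjusted p = 0.102, and 0.0182 with the replicate block). Of the 3 other probe sets over the limit, 2 fell at both times, by 1.41 and 2.64 (adjusted p = 0.00232 and 1.85e-05) and by 0.84 and 0.88 (adjusted p = 0.00511 and 0.00268). The dimmest of them, with a mean of 5.10, rose by 0.34 at 24 h (adjusted p = 0.0217) and changed by 0.04 at 48 h (adjusted p = 0.742). It was also the only one of the 4 without a suffix for probes shared between transcripts.

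SLC39A14, also called ZIP14, had 10.46, 10.55 and 10.36 in Aa cells at 24 h, against 10.43, 10.61 and 10.74 in control cells at 24 h. At 48 h it had 10.57, 10.61 and 10.38 in Aa cells, against 10.56, 10.71 and 10.71 in control cells. The groups overlapped at both times. Its log2 change was -0.13 at 24 h (95% interval -0.38 to 0.11, limma adjusted p = 0.347) and -0.14 at 48 h (95% interval -0.39 to 0.10, limma adjusted p = 0.289). The intervals reach as far as -0.39 on the side of a fall and 0.11 on the side of a rise. Its second probe set over the limit changed by -0.52 and -0.37 without passing (adjusted p = 0.18 and 0.307). With scaling to the hybridisation controls SLC39A14 passed as a fall at both times (-0.42 and -0.61, limma adjusted p = 0.0172 and 0.00101).

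**Figure D2:**
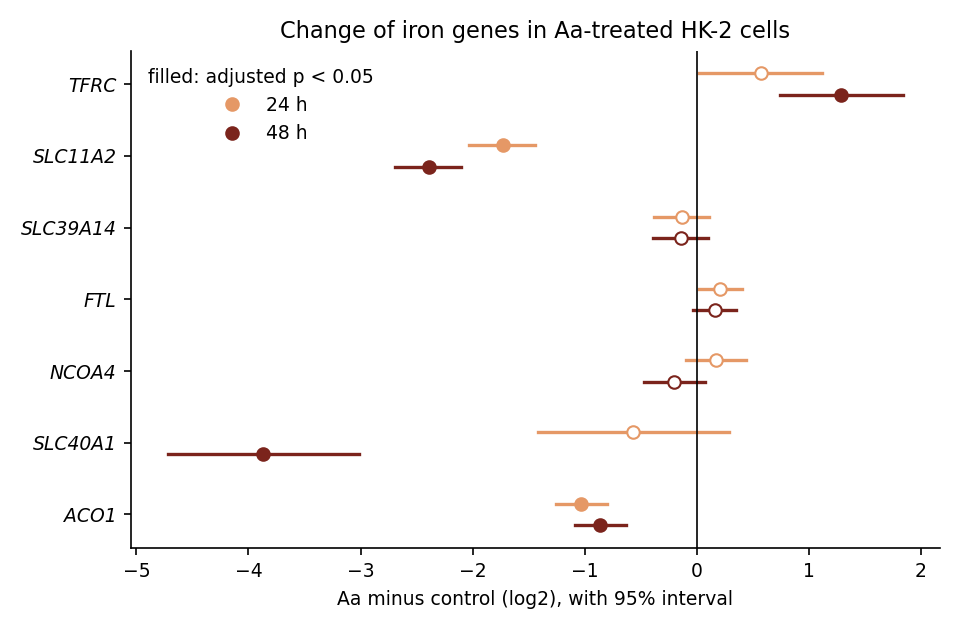
Log2 change, Aa minus control, of the 7 iron genes with 95% intervals, at 24 h (orange) and 48 h (dark red); filled points passed at an adjusted p under 0.05. SLC40A1 spans the widest distance between the times, at -0.57 and -3.87. The value of -3.87 is a fitted one, with 2 of 3 Aa arrays under log2 4.

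For storage, the transcript of the ferritin light chain FTL was read, and neither ferritin protein nor stored iron was measured. FTL had 15.20, 15.15 and 15.18 in Aa cells at 24 h, against 15.04, 14.91 and 14.96 in control cells at 24 h. At 48 h it had 15.11, 15.13 and 15.17 in Aa cells, against 15.03, 14.86 and 15.05 in control cells. All Aa arrays were above all control arrays at both times, by small amounts. The log2 change was 0.21 at 24 h (95% interval 0.02 to 0.40, limma adjusted p = 0.0665) and 0.16 at 48 h (95% interval -0.03 to 0.35, limma adjusted p = 0.129). With the replicate block the 24 h change passed (adjusted p = 0.0262), as it did with equal array medians (adjusted p = 0.0333). Without a filter both changes passed (limma adjusted p = 0.0145 at 24 h and 0.0388 at 48 h). With trend and robust variance both also passed (limma adjusted p = 0.00706 and 0.0226). In contrast, scaling to the hybridisation controls turned the sign of both (-0.08 and -0.31). The second probe set changed by 0.22 and 0.12 (adjusted p = 0.101 and 0.312). Both FTL probe sets carry the suffix for probes shared between transcripts, so signal from near-identical copies of FTL cannot be told apart from FTL here.

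NCOA4, the receptor that takes ferritin to autophagy, had 12.80, 12.88 and 12.83 in Aa cells at 24 h, against 12.64, 12.75 and 12.59 in control cells at 24 h. At 48 h it had 12.62, 12.63 and 12.85 in Aa cells, against 12.85, 13.15 and 12.70 in control cells. The Aa arrays were above the control arrays at 24 h and overlapped them at 48 h. Its log2 change was 0.17 at 24 h (95% interval -0.10 to 0.44, limma adjusted p = 0.271) and -0.20 at 48 h (95% interval -0.47 to 0.07, limma adjusted p = 0.176). The sign at 24 h turned with scaling to the hybridisation controls (-0.11), and the 48 h change then passed as a fall (-0.67, limma adjusted p = 0.00352). The difference between the times was -0.37 (limma adjusted p = 0.151).

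The iron exporter SLC40A1, ferroportin, fell in Aa cells at 48 h by the largest amount among the 7 genes. It had 7.09, 6.93 and 6.64 in Aa cells at 24 h, against 7.69, 7.44 and 7.22 in control cells at 24 h. At 48 h it had 5.08, 3.59 and 3.55 in Aa cells, against 8.30, 8.22 and 7.29 in control cells. The groups did not overlap at either time, and 2 of 3 Aa arrays at 48 h were under log2 4. With these arrays set to log2 4, SLC40A1 was at least 11.9-fold lower in Aa cells at 48 h (fitted log2 change -3.87, SE 0.388, limma adjusted p = 8.04e-06). With the median over its 2 probe sets, of which 1 is under the limit, the fitted change was -1.79 (limma adjusted p = 7.12e-06).

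At 24 h SLC40A1 did not pass, with a log2 change of -0.57 (95% interval -1.42 to 0.29, limma adjusted p = 0.254). Each replicate number showed a similar difference at that time, of -0.60, -0.51 and -0.59. Fitted with the arrays of 24 h alone, the change passed (limma adjusted p = 0.0297). The change differed between the times by -3.30 (SE 0.549, limma adjusted p = 0.00404), against 12.7% of all genes called with a negative difference. With the median over probe sets the difference was -1.48 (limma adjusted p = 0.00484). Its second probe set was under the expression limit in all groups, with means of 2.98 and 3.30 in Aa cells and 3.04 and 3.01 in control cells at 24 h and 48 h.

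For control of iron genes, the transcript of ACO1 was read, and the activity of its protein was not measured. This gene encodes cytosolic aconitase, the enzyme that acts as iron regulatory protein 1 when it lacks its iron-sulfur cluster. ACO1 had 8.24, 8.06 and 8.41 in Aa cells at 24 h, against 9.32, 9.20 and 9.31 in control cells at 24 h. At 48 h it had 8.49, 8.43 and 8.44 in Aa cells, against 9.24, 9.29 and 9.42 in control cells. Every Aa array was under every control array. The fall was 2.05-fold at 24 h (log2 change -1.03, SE 0.104, limma adjusted p = 1.62e-05) and 1.82-fold at 48 h (log2 change -0.86, SE 0.104, limma adjusted p = 3.16e-05). The 2 changes differed by 0.17 (SE 0.148, limma adjusted p = 0.435). Its second probe set was under the expression limit, and with the median over both the changes were -0.53 and -0.38 (limma adjusted p = 0.000412 and 0.00231).

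**Figure D3:**
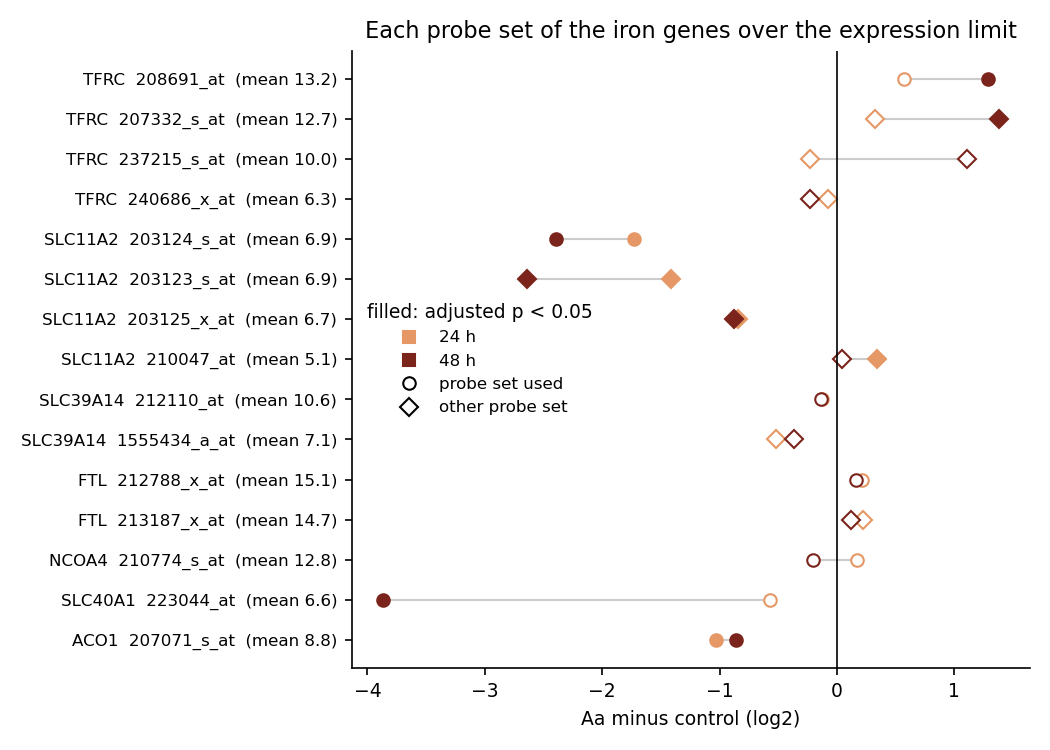
Log2 change, Aa minus control, at 24 h (orange) and 48 h (dark red) for each probe set of the 7 iron genes over the expression limit, with its mean level beside its name; circles are the probe sets used, diamonds the others, and filled symbols passed at an adjusted p under 0.05. For SLC11A2 the probe set with a mean of 5.10 lies right of 0 while the others lie left, and for TFRC the changes at 48 h run from -0.23 to 1.38.

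Between the control groups, 48 h minus 24 h, limma called 0 of the 7 genes (1 at an unadjusted p under 0.05, SLC11A2), against 0.635% of all genes tested (0.277% rose and 0.358% fell). The control groups did not overlap for 1 of the 7 genes, SLC11A2, against 22.6% of all genes. The test of the change at 48 h against that at 24 h called 2 of the 7, SLC40A1 and SLC11A2, both with a negative difference, and 0 with a positive one (0 also at an unadjusted p under 0.05). Over all genes 19.5% were called, 12.7% with a negative and 6.8% with a positive difference. The comparisons at 24 h and 48 h share no array, but they are not independent. Both take their variance from the same fit of all groups. Same-numbered samples also correlated in their deviations from group means (r 0.279 to 0.577 over 18 pairs). Leaving out replicate 1 of control at 48 h kept the 24 h change of TFRC at 0.57. Its limma adjusted p moved from 0.0801 to 0.0436.

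Over the 12 arrays the genes with the highest Pearson r to TFRC were CARD19 (0.978), CREM (0.973) and CDADC1 (0.968), and to SLC40A1 they were ZNF362 (0.991), SOX4 (0.989) and CYS1 (0.988). These 12 points share 2 treatments and 2 times, and the values are a description.

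Other genes of iron handling were followed in 4 lists. Of 25 genes of iron transport and sensing, 12 were over the expression limit, of which 1 rose and 1 fell at 24 h, and 4 rose and 5 fell at 48 h. Over all genes tested, 26.3% rose and 22.8% fell at 24 h, and 30.6% rose and 33.9% fell at 48 h. The list also holds POLD1, a DNA polymerase subunit and no iron transporter or sensor, which was 1 of the 4 that rose at 48 h (log2 change 1.13, limma adjusted p = 0.00481) and is named after its values were seen. The zinc and iron transporter SLC39A8, a relative of SLC39A14, had 8.35 ± 0.11 in Aa cells and 9.78 ± 0.01 in control cells at 24 h, a 2.68-fold fall (limma adjusted p = 6.29e-06), and fell 2.27-fold at 48 h. SLC46A1, a transporter of folate and heme, rose 4.41-fold at 24 h and 2.96-fold at 48 h by the probe set used. Of its 4 probe sets, 2 were over the limit, and both had a positive change at each time. The median over all 4, which includes those under the limit, changed by 0.15 and -0.01 (limma adjusted p = 0.302 and 0.966). TFR2, the second transferrin receptor, rose 3.78-fold at 48 h (limma adjusted p = 0.000109) and changed by 0.65 at 24 h (limma adjusted p = 0.0733, and 0.0107 with the replicate block). The 24 h change of TFR2 also passed without replicate 2 of Aa at 24 h (adjusted p = 0.0373) and without replicate 1 or 2 of control at 48 h (adjusted p = 0.0351 and 0.0314). STEAP2, a metal reductase, had 4.63 ± 0.53 in Aa cells and 7.09 ± 0.45 in control cells at 48 h, a 5.49-fold fall (limma adjusted p = 0.000215), and changed by 0.47 at 24 h (limma adjusted p = 0.348). The list median was 0.04 at 24 h and -0.31 at 48 h, against 0.02 and -0.03 over all genes. With the replicate block 3 rose and 4 fell at 24 h.

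Among genes of heme synthesis, transport and breakdown, 16 were tested, of which 8 rose and 3 fell at 24 h, and 10 rose and 3 fell at 48 h, against 26.3% and 22.8% of all genes at 24 h and 30.6% and 33.9% at 48 h. With scaling to the hybridisation controls 4 rose and 5 fell at 48 h. FLVCR1, a heme exporter, had 10.86 ± 0.20 in Aa cells and 8.71 ± 0.35 in control cells at 24 h, a 4.46-fold rise (limma adjusted p = 2.01e-06), and rose 3.03-fold at 48 h. The porphyrin transporter ABCB6 rose 2.64-fold at 24 h and 4.30-fold at 48 h, although 1 of its 2 probe sets had the opposite sign. The median over these probe sets changed by 0.69 and 0.99 and still passed (limma adjusted p = 0.000367 and 1.55e-05). SLC48A1, which brings heme out of lysosomes, fell 2.43-fold and 2.31-fold, and PPOX, an enzyme of heme synthesis, fell 2.30-fold and 2.23-fold. The list median was 0.32 at 24 h and 0.48 at 48 h, against 0.02 and -0.03 over all genes.

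Of 17 tested genes of mitochondrial iron and iron-sulfur cluster assembly, 6 rose and 5 fell at 24 h, and 6 rose and 7 fell at 48 h, with medians of 0.08 and 0.16. Over all genes 26.3% rose and 22.8% fell at 24 h, and 30.6% rose and 33.9% fell at 48 h, with medians of 0.02 and -0.03. LYRM4, a partner of the cysteine desulfurase, fell 2.12-fold at 24 h and 3.03-fold at 48 h (limma adjusted p = 8.5e-05 and 2.82e-06), and the assembly factor ISCA2 fell 1.68-fold and 1.69-fold. The desulfurase gene NFS1 rose 2.12-fold and 2.19-fold, and the assembly factor IBA57 rose 2.39-fold and 2.66-fold, each by the probe set used. For each, 1 of 2 probe sets over the limit had the opposite sign. With the median over its probe sets NFS1 passed as a fall, with changes of -0.83 and -0.22 (limma adjusted p = 1.08e-05 and 0.0332). The count of 6 that rose includes NFS1 by the probe set used. HSCB, a co-chaperone of cluster transfer, rose 1.49-fold and 2.19-fold. The call of HSCB at 24 h was lost without replicate 2 of Aa at 24 h (0.46, adjusted p = 0.0587) and without replicate 1 of control at 24 h (0.46, adjusted p = 0.0625).

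Of 12 tested regulators of ferroptosis, an iron-dependent form of cell death, 4 rose and 3 fell at 24 h, and 4 rose and 5 fell at 48 h, with medians of 0.21 and -0.12. The shares over all genes were 26.3% and 22.8% at 24 h, and 30.6% and 33.9% at 48 h. With scaling to the hybridisation controls 2 rose and 7 fell at 48 h. SLC7A11, the cystine-importing subunit of system xc-, had 5.51 ± 0.18 in Aa cells and 7.68 ± 0.72 in control cells at 48 h, a 4.48-fold fall (limma adjusted p = 9.95e-05), and its partner SLC3A2 rose 2.24-fold. SAT1, a polyamine acetyltransferase, rose 1.63-fold at 24 h and 3.58-fold at 48 h, and ACSL4, which activates polyunsaturated fatty acids, fell 1.85-fold and 1.99-fold. The glutathione synthesis genes GCLC and GCLM rose 2.11-fold and 1.92-fold at 24 h. At 48 h GCLC rose 1.31-fold and GCLM had a log2 change of 0.22 (limma adjusted p = 0.43), and each had 1 probe set in that direction, of 2 and 3 over the limit. AIFM2, a suppressor of ferroptosis, fell 2.41-fold and 2.00-fold by the probe set used, but its other probe set rose by 1.54 and 1.35 on the log2 scale.

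**Figure D4:**
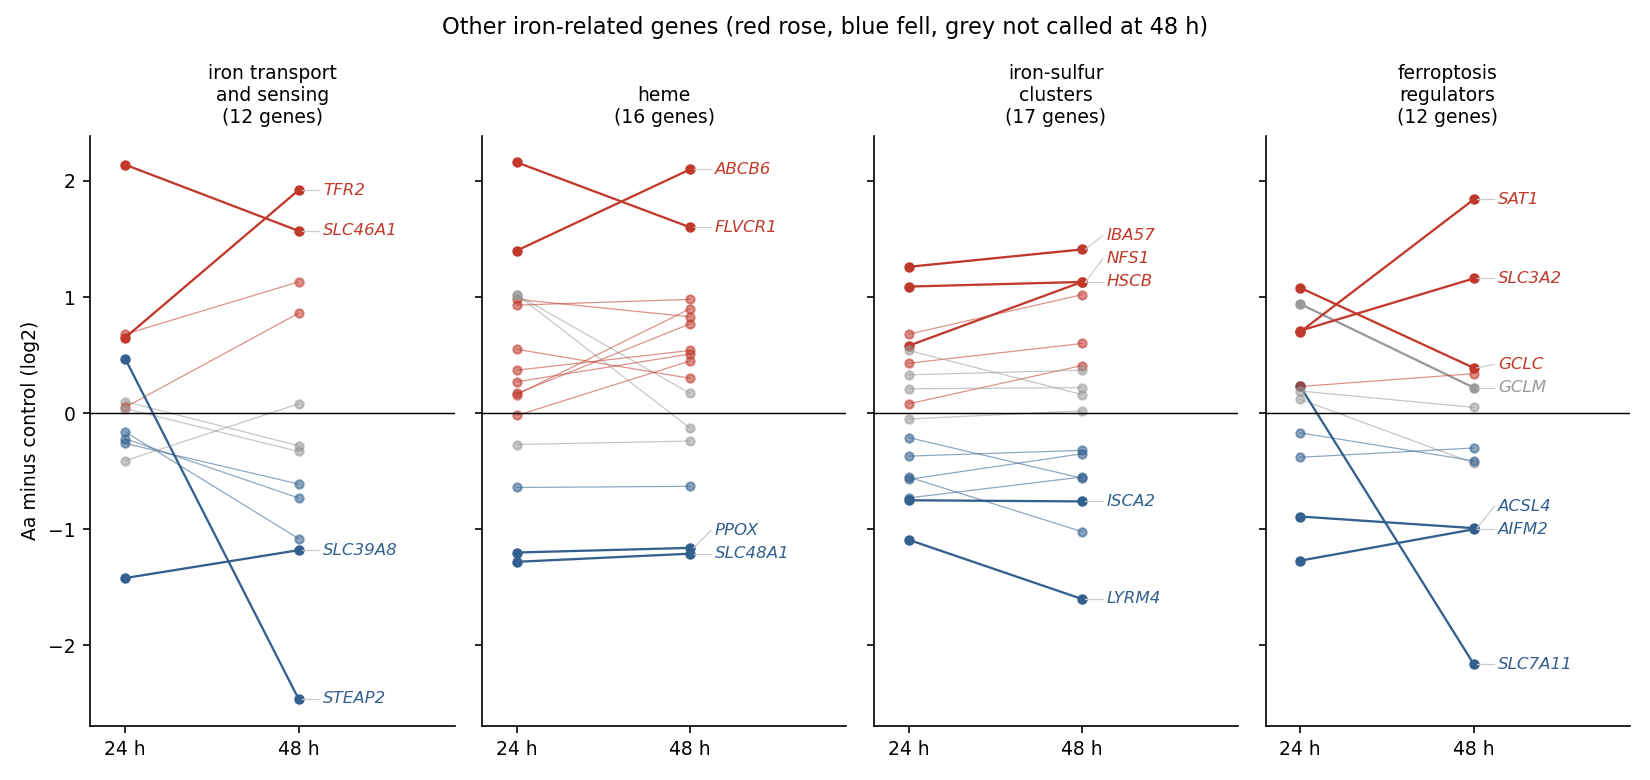
Log2 change, Aa minus control, at 24 h and 48 h for each tested gene of the 4 lists, joined by a line; red rose, blue fell and grey was not called at 48 h, and named genes are drawn in full colour. FLVCR1 and SLC46A1 are the highest at 24 h in their lists, and STEAP2 and SLC7A11 run from above 0 at 24 h to the lowest values at 48 h.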

How the data were processed

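The deposited table holds log2 expression values for 54675 probe sets on 12 Affymetrix arrays, computed by the authors; the submitters' processing notes name GCRMA as the tool. That method corrects background, normalises between arrays and summarises probe sets, so a shift shared by most transcripts would not appear. The labels used here give neither its version nor which arrays were normalised at once. The platform annotation named 1 gene for 41091 probe sets, several for 1801 and none for 11721; 41037 matched RefSeq (GRCh38.p14) by Entrez number. Each of 19775 genes was represented by its probe set with the highest mean. Genes over log2 4 on at least 3 of 12 arrays were tested (11184 genes).

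All 12 arrays entered a single fit of 4 group means (lmFit and eBayes of limma 3.58.1, R 4.3.3; 8 residual df, 2.79 prior df), and every adjusted p is limma's with Benjamini-Hochberg adjustment; those of other probe sets come from a fit of all probe sets over the limit. The number of arrays limits the precision. The fit was tested on simulated data. Arrays under log2 4 entered a fold at log2 4, which is then given as "at least". Promoter windows came from RefSeq (GRCh38.p14) for 6 of the 7 genes.

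The labels' replicate numbers paired the samples: deviations from group means correlated between 0.279 and 0.577 for 18 same-numbered pairs and between -0.371 and -0.0286 for 36 others. What same-numbered samples shared is not stated, so p-values measure the spread between these samples.

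The members, lists, tests and alternatives were chosen with earlier results of these data known. Named list genes were up to 4 per list and time with the largest called change. The genes most like a member were taken for the called member with the largest rise and fall at 48 h.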

Additional observations from a re-analysis of the deposited data

Results flagged for a closer look

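The Aa change of SLC40A1 differed between the times by -3.30 in the test of the difference itself (log2, 48 h minus 24 h, limma adjusted p = 0.00404), with 2 of 3 Aa arrays near background at 48 h. The same test gave -0.66 for SLC11A2 (limma adjusted p = 0.0345), and 8 of 12 fits that left out 1 array did not pass.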

How the results depend on the processing

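The falls of SLC11A2 and ACO1 at both times, of SLC40A1 at 48 h and the rise of TFRC at 48 h kept their direction and passed in all 12 fits that left out 1 array. Of 650 values of the 7 genes under 31 alternative settings, 581 kept their direction and their side of the threshold. A further 17 no longer passed, 14 newly passed and 38 turned in sign. For 906 values of the named list genes these counts were 882, 6, 4 and 14. Those genes were named for the largest called changes in these same data, so a high share of kept values follows in part from that choice. The cause of the lost, new and turned values was not tested, and in some settings fewer or other probe sets entered.

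With the replicate block 2 of the 7 genes rose at 24 h (FTL and TFRC), 1 had a positive difference between the times (TFRC) and 1 rose between controls (SLC11A2); it ended no call. With equal array medians 1 rose at 24 h (FTL). Without a filter, and with trend and robust variance, 1 rose at 24 h (FTL), 2 rose at 48 h (FTL and TFRC) and 1 had a negative difference between the times. Leaving out single arrays gave 0 to 1 risen at 24 h (1 without replicate 1 of control at 48 h, TFRC) and 1 to 2 with a negative difference between the times.

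Scaling to 16 hybridisation-control probe sets moved the median of all genes by -0.29 at 24 h and -0.47 at 48 h (-0.19 for the difference, -0.32 between controls). Of the 7 genes, 3 then fell at 24 h, SLC39A14 (-0.42) among them, and 5 fell at 48 h, SLC39A14 (-0.61) and NCOA4 (-0.67) among them. Over all genes 1640 rose and 3768 fell at 24 h, and 1718 and 6003 at 48 h, against 2942 and 2550, and 3423 and 3787, as deposited. It turned FTL (-0.08), NCOA4 (-0.11) and SLC7A11 (-0.05) at 24 h, FTL (-0.31), GCLC (-0.08) and GCLM (-0.25) at 48 h, ACO1 (-0.01) in the difference, and FTL (-0.31), SLC39A14 (-0.25), ACO1 (-0.28) and NCOA4 (-0.08) between controls. At 48 h 4 of 16 heme genes rose and 5 fell, 2 of 12 ferroptosis regulators rose and 7 fell, and 2 of 12 iron transport genes rose and 7 fell; 2 of 17 iron-sulfur genes rose at 24 h. It moved TFRC to 0.82 and ACO1 to -1.33 at 48 h. Quantile normalization turned FTL (0.02) and SLC39A14 (0.04) in the difference and FTL (-0.04) between controls.

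With the median over probe sets 0 of the 7 genes rose at 48 h and 1 had a negative difference. It moved SLC40A1 at 48 h to -1.79 and its difference to -1.48, ACO1 to -0.53 and -0.38 and SLC11A2 at 24 h to -1.11, which all still passed, and ended the call of SLC46A1 at 24 h (0.15). This setting turned TFRC (-0.23), AIFM2 (0.14), IBA57 (-0.03) and NFS1 (-0.83) at 24 h. At 48 h it turned AIFM2 (0.17), GCLC (-0.15), GCLM (-0.09), NFS1 (-0.22) and SLC46A1 (-0.01). NFS1 then passed as a fall at both times (limma adjusted p = 1.08e-05 and 0.0332). The setting also turned SLC39A14 in the difference (0.15) and between controls (-0.25), as did its second probe set alone. Without probe sets of shared probes, FTL and NCOA4 had none left and ACO1 had 1 under the expression limit, 1 gene rose and 0 fell at 24 h, 1 fell at 48 h and 1 had a negative difference; SLC11A2 (0.34 and 0.04) and AIFM2 (1.54 and 1.35) turned at both times and GCLC (-0.15) at 48 h. Single probe sets of TFRC turned at 24 h (-0.23 and -0.08), and 1 also at 48 h (-0.23), in the difference (-0.15) and between controls (0.09).

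Near 0, leaving out single arrays turned SLC39A14 in the difference (-0.08 to 0.07), and between controls FTL (-0.02 to 0.07), TFRC (-0.31 to 0.18), SLC39A14 (-0.01 to 0.14) and ACO1 (-0.01 to 0.08).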
